A study of Mus musculus with 54 samples.

Results

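The 9 genes described here carry liver glucose production and the response to fasting: Pck1, G6pc, Fbp1, Pcx, Ppargc1a, Igfbp1, Got1, Tat and Sik1. They were taken by symbol from a table of 24346 gene symbols, and all 9 passed the filter on low values that left 10932 genes for testing. RNA of whole mouse liver was sequenced in 3 genotypes, every 4 h from ZT0 (lights on) to ZT20, which gave 18 groups of 3 livers and 54 libraries. WT mice express Bmal1, the clock gene listed as Arntl, in every tissue. In KO mice Bmal1 is silenced by a STOP sequence between loxP sites. RE mice have the same allele and the Syt10-Cre driver, which removes the STOP in the suprachiasmatic nucleus, the central clock in the brain, so that their livers are meant to stay without Bmal1. The RE genotype depends on where Syt10 drives Cre, and recombination in other cells was not measured. The labels used here give no age, sex, strain background, food access or feeding time, and do not say that each liver came from a separate animal, so p-values measure the spread between these samples.

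Gluconeogenesis makes glucose from lactate, glycerol and amino acids and runs mainly in the periportal hepatocytes of the liver. Glucagon raises cAMP in hepatocytes and activates CREB and its coactivators at genes such as Pck1, G6pc and Ppargc1a, whereas insulin keeps FOXO1 away from G6pc, Pck1 and Igfbp1 after a meal. Nocturnal rodents eat mostly at night, so the resting day is their daily fast, and BMAL1 with CLOCK acts on target genes through E-box sequences.

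The sequence just upstream of the start site is shown for 4 members: Pck1 and G6pc, whose time courses were the most alike of any 2 members, Igfbp1, which shares a motif with G6pc and had the largest level difference, and Pcx, the one member with an E-box in this window. The sequences are from RefSeq (GRCm38.p6, the mm10 assembly), cover the 250 bases before the start on the gene's own strand, and read 5′ to 3′. The 4 genes lie on the + strand, and the printed windows are chr2:173152823-173153072 for Pck1, chr11:101367466-101367715 for G6pc, chr11:7197537-7197786 for Igfbp1 and chr19:4510222-4510471 for the first of the 2 Pcx starts. Capitals mark the motif found by a search of both strands.
Pck1: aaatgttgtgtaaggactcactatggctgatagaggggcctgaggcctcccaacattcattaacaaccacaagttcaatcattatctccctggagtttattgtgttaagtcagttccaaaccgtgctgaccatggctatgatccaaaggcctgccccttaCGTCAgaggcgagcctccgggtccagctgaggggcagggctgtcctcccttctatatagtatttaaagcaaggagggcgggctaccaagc
G6pc: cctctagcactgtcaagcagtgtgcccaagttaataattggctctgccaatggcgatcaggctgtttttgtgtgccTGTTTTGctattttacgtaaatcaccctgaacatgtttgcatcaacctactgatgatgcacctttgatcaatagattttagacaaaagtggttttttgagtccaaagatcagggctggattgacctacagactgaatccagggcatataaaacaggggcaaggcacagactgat
Igfbp1: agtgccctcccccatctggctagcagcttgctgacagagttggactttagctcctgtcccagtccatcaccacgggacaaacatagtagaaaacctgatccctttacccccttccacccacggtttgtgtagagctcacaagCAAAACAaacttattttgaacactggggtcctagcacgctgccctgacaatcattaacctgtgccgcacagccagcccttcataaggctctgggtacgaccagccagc
Pcx: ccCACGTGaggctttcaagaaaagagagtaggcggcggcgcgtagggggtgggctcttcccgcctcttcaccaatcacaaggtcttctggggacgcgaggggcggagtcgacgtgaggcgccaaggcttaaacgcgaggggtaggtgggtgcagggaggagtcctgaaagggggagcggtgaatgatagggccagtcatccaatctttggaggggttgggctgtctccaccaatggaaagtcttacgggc

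The capitals in Pck1 are a cAMP response element half-site (TGACG, read as CGTCA on the printed strand) 90 to 86 bases before the start. In G6pc and Igfbp1 they are the insulin response core CAAAACA, on the opposite strand in G6pc (174 to 168 bases before the start) and on the printed strand in Igfbp1 (108 to 102 bases before the start). In Pcx they are the E-box CACGTG, 248 to 243 bases before the start. Ppargc1a also had the half-site TGACG on the opposite strand, 49 to 45 bases before its start. Fbp1, Got1 and Tat had no match to any of the 7 motifs searched, and Sik1 was not among the 8 members matched to a promoter. Of 32817 RefSeq promoter windows of the same length, 6.02% held the E-box, 17.7% the half-site TGACG, 5.56% CAAAACA, 1.55% the full element TGACGTCA, 3.16% the forkhead core GTAAACA, 16.1% the glucocorticoid half-site AGAACA and 0.817% the D-box TTATGTAA; TGACGTCA contains TGACG. A match describes these letters only.

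Values are FPKM, fragments scaled to transcript length and to mapped fragments, as the authors deposited them, and no read counts come with them, so the depth of a library and its counting error are unknown. Total FPKM per library ran from 572995 to 751399. Arntl lay between 0.202 and 10.3 FPKM in WT, 9.76 and 14.2 in KO and 7.60 and 15.5 in RE; these values cover the whole gene and check nothing of the STOP allele. The 3 livers of a group are numbered 0 to 2. KO ZT8 liver 2 stood apart from its group in these genes, and calls of a member that change without it are given both ways. In whole liver, fewer cells of a type and less RNA per cell cannot be told apart.

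WT livers had a 24 h rhythm in 4 of the 9 genes, KO livers in none and RE livers in 7 (5 with RE fitted alone). For each genotype, limma's F test was run on a 24 h cosine and sine across the 6 time means of log2(FPKM + 1); p was adjusted by Benjamini and Hochberg over all 10932 genes, and a gene was called below 0.05. The amplitude runs from mean to peak in log2 units. Of all tested genes, 34.8% were called in WT, 0.0366% in KO and 46.8% in RE. The 4 calls in WT were Pck1, Fbp1, Got1 and Tat. The 7 calls in RE were Pck1, G6pc, Fbp1, Pcx, Ppargc1a, Tat and Sik1. A single variance per gene served all genotypes, although the median gene spread least between WT livers (SD 0.13, log2) and most between RE livers (0.20). Fitting RE alone left 5 of its calls, beside 3107 of all 10932 genes called in that fit. It ended those of Ppargc1a (limma adjusted p 0.150) and Tat (0.105). Fitting WT alone kept its 4 calls. In KO, 1 of the 9 (Pcx) had an unadjusted p under 0.05 in limma. The 9 genes had a median amplitude of 0.35 (WT), 0.17 (KO) and 0.46 (RE), beside 0.14, 0.08 and 0.16 over all genes tested. A fitted amplitude is never below 0 and grows with the spread between livers. That spread was wider in many of these genes than in the median gene, in KO as well, and the gap in amplitude was not tested.

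**Figure D1:**
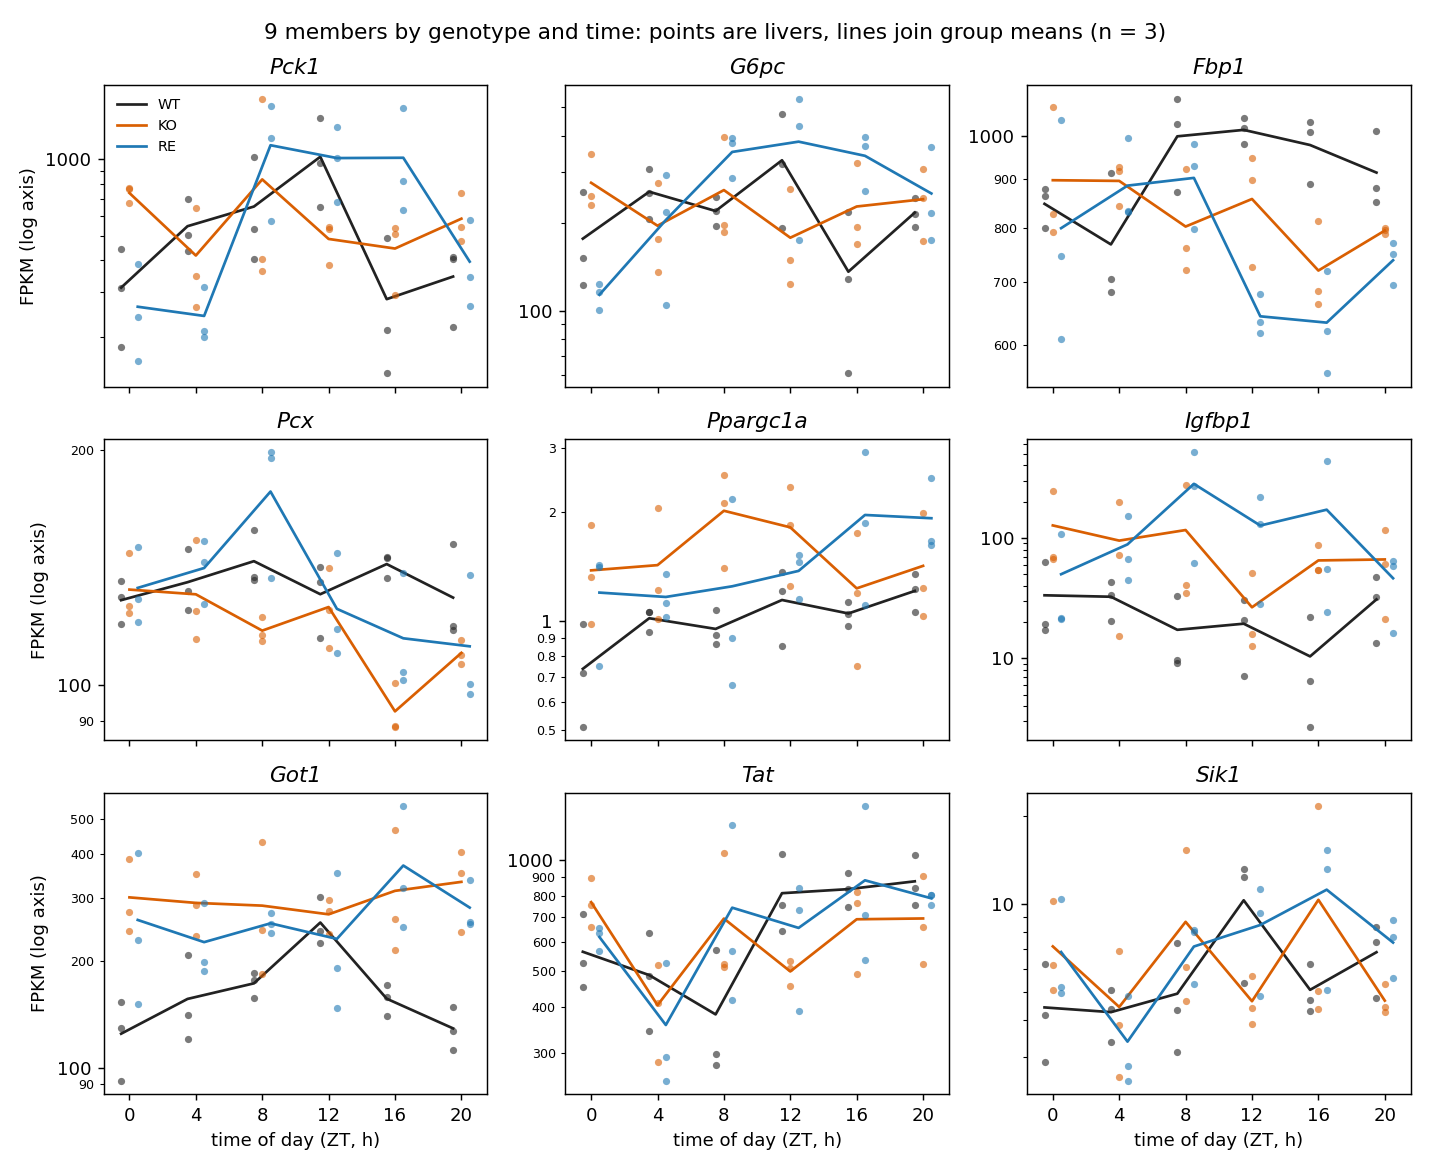
FPKM (log axis) of the 9 genes against time of day (ZT, h) in WT, KO and RE; points are single livers and lines join the means of the 3 livers in a group. Pck1 in RE is lowest at ZT0 and ZT4 and high from ZT8 to ZT16, and Got1 in KO and RE lies above WT at most times.

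Pck1 encodes the cytosolic phosphoenolpyruvate carboxykinase that commits oxaloacetate to glucose. In WT its level in livers 0, 1 and 2 was 311, 442 and 183 FPKM at ZT0, 696, 437 and 502 at ZT4, 1018, 532 and 404 at ZT8, 1457, 646 and 968 at ZT12, 488, 212 and 144 at ZT16 and 403, 219 and 413 at ZT20. In RE it was 160, 239 and 388 FPKM at ZT0, 211, 200 and 314 at ZT4, 571, 1209 and 1629 at ZT8, 678, 1346 and 1010 at ZT12, 819, 629 and 1595 at ZT16 and 265, 343 and 578 at ZT20. Time means were highest from ZT8 to ZT12 in WT and from ZT8 to ZT16 in RE. At ZT16 every RE liver lay above every WT liver, as in 17.1% of all genes. In KO it was 767, 772 and 671 FPKM at ZT0, 348, 643 and 263 at ZT4, 404, 362 and 1734 at ZT8, 543, 530 and 384 at ZT12, 506, 292 and 538 at ZT16 and 476, 541 and 734 at ZT20. Apart from 1 liver at ZT8, the KO livers lay between 263 and 772 FPKM. The amplitude was 0.78 in WT (SE 0.20, peak ZT8.86, limma adjusted p 0.00800), 1.24 in RE (SE 0.20, peak ZT12.5, adjusted p 3.59e-05) and 0.16 in KO (SE 0.20, adjusted p 0.910). The highest WT mean, 1023 ± 408 FPKM at ZT12 (SD, n = 3), was 3.64 times the lowest, and in RE the ratio of highest (ZT8) to lowest (ZT4) time mean was 4.71.

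G6pc encodes glucose-6-phosphatase, the last step, which releases free glucose. In RE its level was 116, 101 and 123 FPKM at ZT0, 218, 104 and 293 at ZT4, 377, 286 and 392 at ZT8, 175, 536 and 433 at ZT12, 368, 259 and 397 at ZT16 and 218, 366 and 176 at ZT20. In WT it was 152, 257 and 123 FPKM at ZT0, 254, 208 and 308 at ZT4, 245, 195 and 220 at ZT8, 320, 193 and 475 at ZT12, 219, 128 and 61.2 at ZT16 and 194, 215 and 244 at ZT20. RE livers were uniformly low at ZT0 and high at ZT8 and ZT16, whereas WT livers overlapped across most times. KO livers ranged from 124 to 396 FPKM with a median of 214. The amplitude was 0.76 in RE (SE 0.17, peak ZT12.4, limma adjusted p 0.00142), 0.33 in WT (adjusted p 0.250) and 0.19 in KO (adjusted p 0.845). The RE peaks of G6pc and Pck1 were at nearly the same hour.

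Fbp1 encodes fructose-1,6-bisphosphatase, the step between Pck1 and G6pc that opposes phosphofructokinase. In WT it was 865, 799 and 880 FPKM at ZT0, 683, 915 and 705 at ZT4, 1096, 1031 and 872 at ZT8, 1021, 981 and 1045 at ZT12, 889, 1011 and 1036 at ZT16 and 1012, 852 and 881 at ZT20. In RE it was 610, 746 and 1041 FPKM at ZT0, 995, 832 and 832 at ZT4, 931, 982 and 797 at ZT8, 680, 635 and 618 at ZT12, 720, 622 and 561 at ZT16 and 751, 771 and 695 at ZT20. The 2 genotypes did not overlap at ZT12, ZT16 or ZT20, with RE lower each time, as in 17.3%, 16.1% and 14.3% of all genes. The amplitude was small in both: 0.18 in WT with a peak at ZT13.5 (limma adjusted p 0.0369) and 0.26 in RE with a peak at ZT4.04 (adjusted p 0.00177). The 2 peaks thus stood at different parts of the day. KO livers ranged from 663 to 1075 FPKM, with an amplitude of 0.12 (adjusted p 0.554). The WT call was lost without any 1 of 8 WT livers (ZT0 livers 0 and 1, ZT4 livers 0 and 2, ZT12 livers 0 and 2, ZT16 livers 1 and 2), with adjusted p up to 0.0899. It was also lost without a filter on low values (limma adjusted p 0.0568).

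Pcx encodes pyruvate carboxylase, which turns pyruvate into oxaloacetate in mitochondria and supplies Pck1. In RE its level was 120, 129 and 150 FPKM at ZT0, 144, 153 and 127 at ZT4, 137, 195 and 199 at ZT8, 110, 148 and 118 at ZT12, 139, 104 and 101 at ZT16 and 100, 97.4 and 138 at ZT20. At ZT8, 2 RE livers stood above all others of the genotype. In RE the amplitude was 0.28 (SE 0.06, peak ZT6.36, limma adjusted p 0.000786). In WT, livers ranged from 115 to 158 FPKM and the amplitude was 0.05 (adjusted p 0.743). In KO, livers ranged from 88.4 to 153 FPKM with an amplitude of 0.19 (p 0.00822 before and 0.262 after adjustment). The lowest KO values were those of ZT16 (88.6, 100 and 88.4 FPKM). They lay below all 3 WT livers of that time (146, 137 and 145 FPKM), as in 20% of all genes.

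Got1, the cytosolic aspartate aminotransferase of the malate-aspartate shuttle, also feeds aspartate carbon to glucose synthesis. In WT it was 92.2, 153 and 129 FPKM at ZT0, 141, 207 and 121 at ZT4, 157, 177 and 184 at ZT8, 302, 243 and 224 at ZT12, 159, 171 and 140 at ZT16 and 149, 127 and 112 at ZT20. All 3 WT livers of ZT12 exceeded every other WT liver. KO livers ranged from 184 to 466 FPKM (median 275) and RE livers from 147 to 543 (median 253). The amplitude was 0.44 in WT (SE 0.13, peak ZT11.0, limma adjusted p 0.0231), 0.13 in KO (adjusted p 0.875) and 0.23 in RE (adjusted p 0.290). The WT call was lost without ZT0 liver 0 or ZT12 liver 0, with adjusted p up to 0.0877.

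Tat, tyrosine aminotransferase, starts tyrosine breakdown and is a long-known glucocorticoid and glucagon target. In WT it was 713, 527 and 454 FPKM at ZT0, 486, 636 and 344 at ZT4, 569, 280 and 298 at ZT8, 1038, 644 and 757 at ZT12, 920, 747 and 834 at ZT16 and 839, 756 and 1031 at ZT20. In RE it was 656, 568 and 633 FPKM at ZT0, 293, 254 and 528 at ZT4, 566, 419 and 1244 at ZT8, 391, 842 and 732 at ZT12, 538, 709 and 1395 at ZT16 and 805, 755 and 801 at ZT20. All 9 WT livers of ZT12, ZT16 and ZT20 lay above all 6 of ZT4 and ZT8, and the lowest RE time mean was that of ZT4. The amplitude was 0.60 in WT (SE 0.14, peak ZT17.4, limma adjusted p 0.00369) and 0.46 in RE (SE 0.14, peak ZT16.5, adjusted p 0.0237). In KO it was 0.25 (adjusted p 0.648), with livers from 284 to 1046 FPKM. The RE call was lost without RE ZT4 liver 0, ZT4 liver 1, ZT8 liver 1 or ZT16 liver 2 (adjusted p up to 0.142), and it was 0.105 when RE was fitted alone.

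Ppargc1a encodes PGC-1 alpha, a coactivator of gluconeogenic and mitochondrial genes, and Sik1 encodes a kinase that is induced by cAMP and holds CREB coactivators in the cytoplasm. Both were low. Ppargc1a ranged from 0.512 to 1.37 FPKM in WT (median 1.05), 0.750 to 2.54 in KO (median 1.36) and 0.668 to 2.92 in RE (median 1.42), where the added 1 FPKM of the log2 scale makes differences smaller. Its RE livers were 1.86, 1.11 and 2.92 FPKM at ZT16 and 2.49, 1.66 and 1.63 at ZT20, the highest time means of that genotype. The RE amplitude was 0.24 (SE 0.08, peak ZT17.4, limma adjusted p 0.0482), against 0.09 in WT (adjusted p 0.635) and 0.17 in KO (adjusted p 0.573). That call stood at the threshold: it was lost without any 1 of 31 of the 54 libraries (adjusted p up to 0.203, without RE ZT16 liver 2). It was also lost without a filter on low values (limma adjusted p 0.0787) and with a pseudocount of 0.1 (0.0513).

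Sik1 in RE was 4.96, 5.19 and 10.4 FPKM at ZT0, 2.80, 2.49 and 4.86 at ZT4, 8.12, 5.32 and 8.01 at ZT8, 4.84, 9.29 and 11.3 at ZT12, 13.2, 5.09 and 15.3 at ZT16 and 8.83, 7.72 and 5.58 at ZT20. Except for ZT12 liver 0, every liver of the other times lay above the 3 livers of ZT4. The amplitude was 0.52 in RE (SE 0.17, peak ZT15.5, limma adjusted p 0.0377), 0.35 in WT (adjusted p 0.232) and 0.09 in KO (adjusted p 0.963). WT livers ranged from 2.89 to 13.2 FPKM and KO livers from 2.55 to 21.5, the latter at ZT16 in a liver whose 2 companions read 5.06 and 4.38. The RE call was lost without any 1 of 10 RE livers (ZT0 livers 0 and 1, ZT4 livers 0 and 1, ZT8 liver 1, ZT12 livers 1 and 2, ZT16 livers 0 and 2, ZT20 liver 0), with adjusted p up to 0.135. It was also lost without a filter on low values (limma adjusted p 0.0668).

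Igfbp1 encodes a secreted binding protein for insulin-like growth factors that the liver makes in fasting and that insulin represses. In WT it was 19.4, 63.5 and 17.3 FPKM at ZT0, 43.3, 20.3 and 33.9 at ZT4, 32.9, 9.72 and 9.16 at ZT8, 30.4, 7.15 and 20.7 at ZT12, 21.9, 6.51 and 2.71 at ZT16 and 13.4, 47.1 and 32.2 at ZT20. In KO it was 69.2, 66.7 and 245 FPKM at ZT0, 15.3, 72.5 and 197 at ZT4, 34.9, 40.4 and 274 at ZT8, 12.7, 15.9 and 51.0 at ZT12, 54.2, 87.2 and 53.8 at ZT16 and 117, 21.3 and 60.4 at ZT20. In RE it was 21.8, 21.2 and 107 FPKM at ZT0, 153, 67.4 and 44.8 at ZT4, 62.4, 269 and 513 at ZT8, 28.4, 221 and 131 at ZT12, 55.2, 24.3 and 436 at ZT16 and 58.9, 63.8 and 16.1 at ZT20. Livers of the same genotype and time often differed more than the time means did. No genotype had a called rhythm: the amplitude was 0.76 in WT (SE 0.40, limma adjusted p 0.289), 0.66 in KO (adjusted p 0.687) and 1.07 in RE (adjusted p 0.0730). The RE rhythm was called without any 1 of RE ZT0 liver 2, ZT8 liver 0, ZT12 liver 0 and ZT16 liver 2, with adjusted p down to 0.0278.

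**Figure D2:**
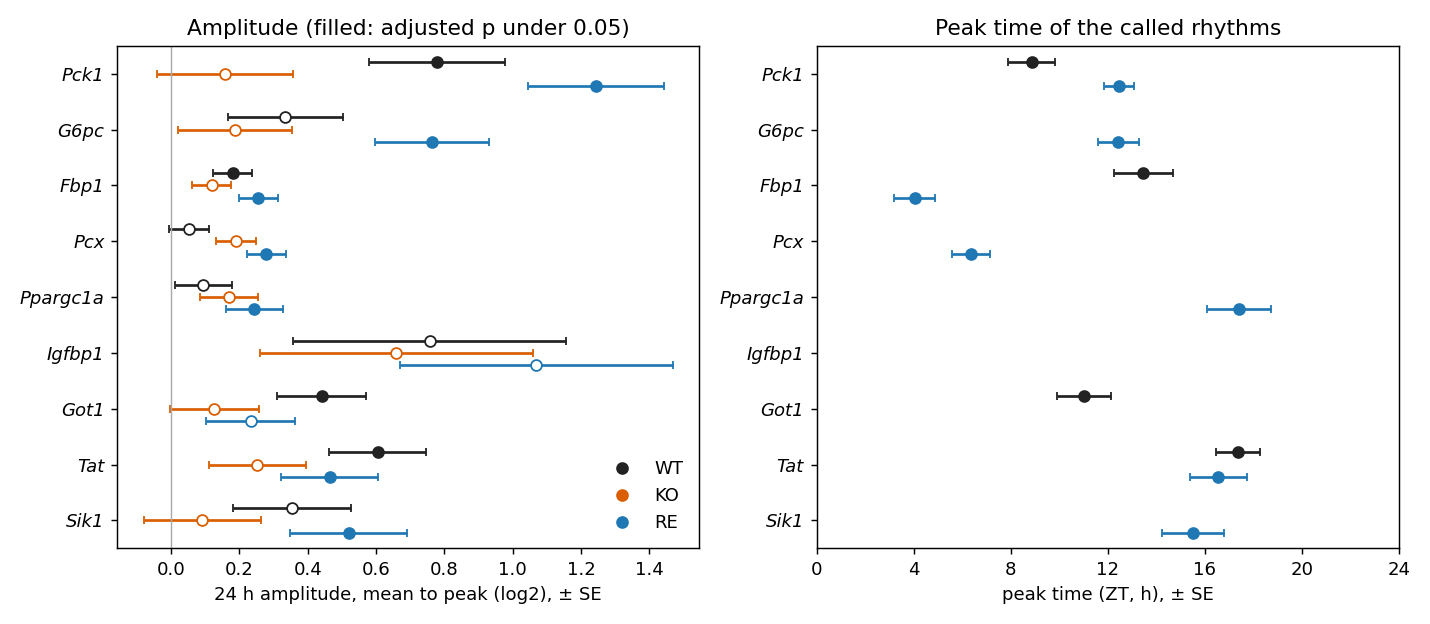
The left panel gives the 24 h amplitude (log2, mean to peak, ± SE) of each gene in WT, KO and RE, with filled points for adjusted p under 0.05; the right panel gives the peak time (ZT, h, ± SE) of the called rhythms. All KO points are open, and in RE the peaks of Pck1 and G6pc coincide near ZT12.4 while Fbp1 and Pcx peak at ZT4.04 and ZT6.36.

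Within RE, the called genes peaked at different hours. Fbp1 and Pcx peaked at ZT4.04 and ZT6.36, Pck1 and G6pc at ZT12.5 and ZT12.4, and Sik1, Tat and Ppargc1a at ZT15.5, ZT16.5 and ZT17.4. For the 3 genes called in both WT and RE, the peak shift from WT to RE was 3.59 h for Pck1 (SE 1.15), -9.42 h for Fbp1 (SE 1.48) and -0.822 h for Tat (SE 1.48). The Tat shift was smaller than its SE. These are shifts of the fitted cosines. For Pck1 the highest time mean lay at ZT12 in WT and ZT8 in RE, the opposite order to its shift. For Fbp1 it lay at ZT12 and ZT8, and for Tat at ZT20 and ZT16. When any change over the 6 times was tested with limma instead of a cosine, 2 of 9 genes were called in WT (Pck1 and Tat, 23.5% of all genes), none in KO (0.0457% of all genes, 1 member at an unadjusted p under 0.05) and 5 in RE (Pck1, G6pc, Fbp1, Pcx and Tat, 39.3% of all genes). With WT fitted alone 4 members were called, beside 4396 of all 10932 genes. With RE fitted alone 1 member was, beside 1161 of all genes.

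The rhythms were then compared between genotypes directly, which asks whether a gene cycles differently and not only whether it passes in one genotype. The size is the length of the difference between the cosine and sine terms of the 2 genotypes (log2). RE differed from WT in 2 of 9 genes, with 14.1% of all genes called: Pck1 by 1.01 (SE 0.28, limma adjusted p 0.0346) and Fbp1 by 0.41 (SE 0.08, adjusted p 0.00156). RE differed from KO in 2 of 9 genes, with 3.07% of all genes called: Pck1 by 1.40 (SE 0.28, adjusted p 0.0166) and G6pc by 0.94 (SE 0.24, adjusted p 0.0479). KO differed from WT in 1 of 9 genes, with 9.06% of all genes called: Fbp1 by 0.29 (SE 0.08, adjusted p 0.0446). The 3 pairs share samples, so these values are not independent of each other.

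The Pck1 and G6pc differences between RE and KO differed in how far they held. Pck1 remained called without each of the 54 libraries in turn, and G6pc was lost in 33 of those 54 fits (adjusted p up to 0.0925). With RE and KO fitted without WT, neither was called (adjusted p 0.0761 for Pck1 and 0.113 for G6pc), and 2 of all genes were, against 336 with WT in the fit. The KO to WT difference of Pck1 was 0.89 (adjusted p 0.0891) and that of Got1 0.55 (adjusted p 0.117); both were called without KO ZT8 liver 2 (adjusted p 0.0113 and 0.0434). The KO to WT difference of Fbp1 was lost in 21 of the 54 fits (adjusted p up to 0.0952), under upper quartile scaling (0.0627) and without a filter on low values (0.0706). The RE to WT difference of Pck1 was lost without any 1 of 11 livers (WT ZT0 liver 1, ZT4 livers 0 and 2, ZT12 liver 1 and ZT16 livers 1 and 2, RE ZT0 liver 0, ZT4 livers 0 and 1, ZT12 liver 1 and ZT16 liver 2; adjusted p up to 0.0898), whereas that of Fbp1 remained called in all 54 fits.

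The mean level over the day was compared next. Got1, Igfbp1 and Ppargc1a were higher than WT in both KO and RE, and Fbp1 was lower in both. In KO, 5 of 9 genes differed from WT, 3 higher and 2 lower, beside 42.3% of all genes (22.1% higher and 20.2% lower). In RE, 4 of 9 differed from WT, 3 higher and 1 lower, beside 45.9% of all genes (24.2% higher and 21.7% lower). These counts are close to the share of all genes. RE did not pass the test against KO for any of the 9 (0.192% of all genes; 2 members, Fbp1 and Pcx, at an unadjusted p under 0.05 in limma). KO and RE are both compared with the same WT livers.

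Got1 had the smallest p of the level differences. WT livers averaged 166 ± 51.5 FPKM, KO livers 299 ± 80.4 and RE livers 271 ± 96.2 (SD over 18 livers of all times). On the log2(FPKM + 1) scale the level was 1.81-fold higher in KO (log2 0.86, SE 0.13, limma adjusted p 8.05e-07) and 1.61-fold higher in RE (log2 0.68, SE 0.13, adjusted p 3.40e-05). Every KO liver was above every WT liver at ZT0, ZT4, ZT16 and ZT20, as in 14.7%, 19.4%, 17.3% and 19% of all genes. At ZT12, the hour of the WT peak, WT and KO livers overlapped.

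Igfbp1 had the largest fold. Its median was 20.5 FPKM in WT (2.71 to 63.5), 57.3 in KO (12.7 to 274) and 63.1 in RE (16.1 to 513). The level was 2.93-fold higher in KO (log2 1.55, SE 0.40, limma adjusted p 0.00167) and 3.85-fold higher in RE (log2 1.95, SE 0.40, adjusted p 0.000110). Both ranges overlap with WT, and both calls held without each library in turn. For Ppargc1a, WT livers averaged 1.02 ± 0.211 FPKM, KO livers 1.55 ± 0.520 and RE livers 1.48 ± 0.590 (SD, n = 18). Its level differed from WT by 0.32 in KO (log2, SE 0.08, limma adjusted p 0.00231) and by 0.27 in RE (adjusted p 0.00840).

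Fbp1 was 1.11-fold lower than WT in KO (limma adjusted p 0.0300) and 1.21-fold lower in RE (adjusted p 0.000135), with WT livers at 921 ± 117 FPKM, KO livers at 828 ± 105 and RE livers at 768 ± 144 (SD, n = 18). The KO call was lost without any 1 of WT ZT4 liver 1, ZT8 liver 0 and ZT20 liver 0 and KO ZT0 liver 1, ZT8 liver 0 and ZT12 liver 0 (adjusted p up to 0.0626). Pcx was 1.15-fold lower in KO (adjusted p 0.00435), at 118 ± 17.5 FPKM against 135 ± 12.5 in WT. In RE it stood at 134 ± 29.2 FPKM, a difference from WT of -0.04 on the log2 scale (SE 0.06, adjusted p 0.621). Pck1, G6pc, Tat and Sik1 passed in neither comparison. Their log2 differences from WT lay between -0.05 (Tat) and 0.25 (Pck1) in KO and between 0.00 (Tat) and 0.25 (Sik1) in RE, with SE from 0.14 to 0.20.

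**Figure D3:**
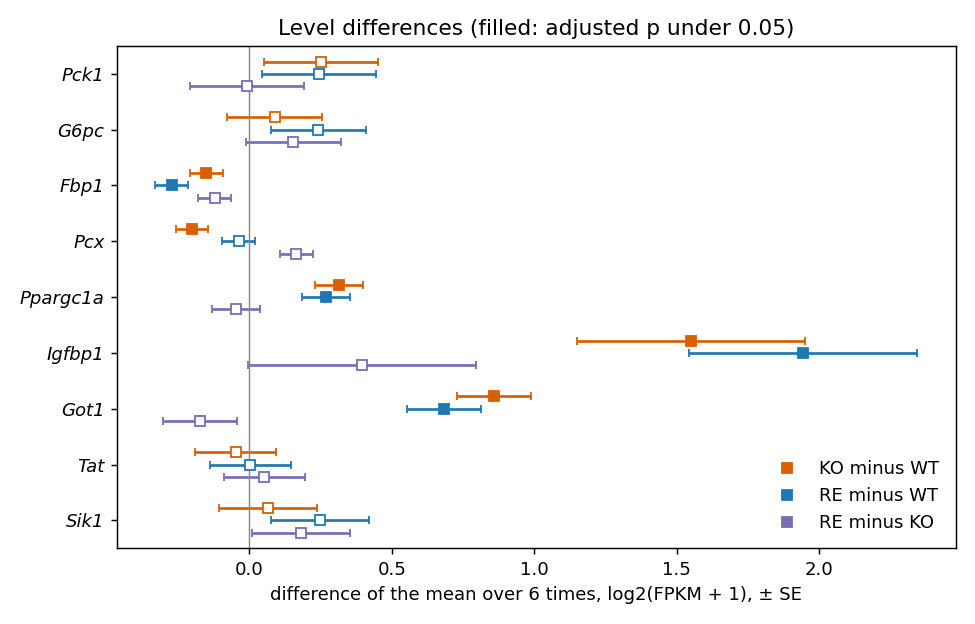
Difference of the mean level over 6 times (log2(FPKM + 1), ± SE) of each gene for KO minus WT, RE minus WT and RE minus KO, with filled squares for adjusted p under 0.05. Igfbp1 stands at 1.55 and 1.95 and Got1 at 0.86 and 0.68 above WT, and every RE minus KO square is open.

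At single times, calls against WT were most frequent at ZT16. In RE at ZT16, 5 of 9 genes differed from WT, beside 18.7% of all genes. Pck1 was 3.79-fold higher (819, 629 and 1595 FPKM against 488, 212 and 144, limma adjusted p 0.00407). G6pc was 2.78-fold higher (368, 259 and 397 FPKM against 219, 128 and 61.2, adjusted p 0.00870). For both genes the groups do not overlap, and RE lay wholly above WT in 17.1% of all genes. Both calls were lost without WT ZT16 liver 2, the lowest liver (limma adjusted p 0.0520 and 0.127). Igfbp1 differed by 3.31 on the log2 scale (adjusted p 0.0142) and was not called without that same liver (adjusted p 0.0982) or without RE ZT16 liver 2 (log2 2.13, adjusted p 0.168). Got1 was 2.24-fold higher (320, 248 and 543 FPKM against 159, 171 and 140, adjusted p 0.00753), a call lost without RE ZT16 liver 2 (adjusted p 0.0916). Fbp1 was 1.55-fold lower (720, 622 and 561 FPKM against 889, 1011 and 1036, adjusted p 0.00109).

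In KO at ZT16, 4 of 9 genes differed from WT, beside 14.6% of all genes: Got1 and Igfbp1 higher, Fbp1 and Pcx lower. The Pcx difference of 1.54-fold (limma adjusted p 0.00167) held without each library in turn. The Igfbp1 and Got1 differences had adjusted p of 0.0394 and 0.0430, and each was lost without any 1 of 5 of the 6 livers compared (for Igfbp1 all but WT liver 0, adjusted p up to 0.188; for Got1 all but KO liver 1, adjusted p up to 0.289). The Fbp1 difference of 1.36-fold (adjusted p 0.0265) was lost without WT liver 1, WT liver 2, KO liver 0 or KO liver 1 (adjusted p up to 0.114).

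Outside ZT16, Got1 was the member called most often. In KO it was 2.41-fold higher than WT at ZT0 (243, 274 and 387 FPKM against 92.2, 153 and 129, limma adjusted p 0.00724; 8.65% of all genes) and 2.53-fold higher at ZT20 (353, 405 and 241 against 149, 127 and 112, adjusted p 0.00435; 9.37% of all genes). In RE it was 1.96-fold higher at ZT0 (adjusted p 0.0452; 9.39% of all genes) and 2.17-fold higher at ZT20 (254, 336 and 257 FPKM, adjusted p 0.0158; 11.6% of all genes). The KO and RE groups of ZT20 both lay above all WT livers, as in 19% (KO) and 16.5% (RE) of all genes. Leaving out WT ZT0 liver 0 or KO ZT0 liver 2 ended the KO call of ZT0 (adjusted p up to 0.0712), and leaving out WT ZT0 liver 0, WT ZT0 liver 2, WT ZT16 liver 0, RE ZT0 liver 1 or RE ZT0 liver 2 ended the RE call of ZT0 (adjusted p up to 0.268). The RE call of ZT20 was lost without WT ZT20 liver 2 or RE ZT20 liver 1 (adjusted p 0.0720 and 0.0737). At ZT4 the 3 KO livers (287, 350 and 235 FPKM) lay above the 3 WT livers, as in 19.4% of all genes. The log2 difference of 0.91 missed the threshold (limma adjusted p 0.0544). It was called without any 1 of 9 libraries, KO ZT8 liver 2 among them (adjusted p 0.0424; down to 0.0325 without WT ZT4 liver 1), with a filter at 5 FPKM and with only KO and WT fitted (0.0247). Pck1 at ZT0 also lay higher in every KO liver than in any WT liver, as in 14.7% of all genes. Its log2 difference was 1.32 (limma adjusted p 0.0869, and 0.0495 without KO ZT8 liver 2).

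Of the other calls, Fbp1 in RE at ZT12 was 1.58-fold lower (680, 635 and 618 FPKM against 1021, 981 and 1045, limma adjusted p 0.000586; 18.9% of all genes). Igfbp1 in RE at ZT8 differed by 3.74 on the log2 scale (62.4, 269 and 513 FPKM against 32.9, 9.72 and 9.16, adjusted p 0.00691; 13.4% of all genes), and lost its call without RE ZT8 liver 2 (adjusted p 0.0572). Ppargc1a in KO at ZT8 read 1.40, 2.12 and 2.54 FPKM against 1.07, 0.868 and 0.919 (log2 0.61, limma adjusted p 0.0464, beside 11.5% of all genes called). That call was lost in 21 of the 54 fits without 1 library (adjusted p up to 0.170, without KO ZT8 liver 2). No member was called at ZT4 in either comparison with WT (11.4% of all genes in KO and 7.67% in RE; 1 member each at an unadjusted p under 0.05 in limma), or at ZT12 in KO (18.3% of all genes; 3 members at an unadjusted p under 0.05). No member was called between RE and KO at any of the 6 times, where 0% of all genes were called at ZT0, ZT4 and ZT20, 0.256% at ZT8, 0.467% at ZT12 and 3.27% at ZT16; 2, 0, 2, 4, 2 and 0 members had an unadjusted p under 0.05 from ZT0 to ZT20. Pcx at ZT8, with a log2 difference of 0.57 between RE and KO (adjusted p 0.0575), was called without any 1 of 7 libraries (adjusted p 0.0341 without KO ZT8 liver 2 and 0.00290 without RE ZT8 liver 0) and with a filter at 5 FPKM (0.0405). At ZT0, all 3 RE livers lay below all 3 KO livers in Pck1 (160, 239 and 388 FPKM against 767, 772 and 671), G6pc (116, 101 and 123 against 249, 231 and 347) and Tat (656, 568 and 633 against 753, 658 and 896), as 4.94% of all genes did.

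The spread between livers of the same genotype and time was wide for these genes. The SD within a group (log2) was 0.99, 1.28 and 1.46 for Igfbp1 in WT, KO and RE, and 0.63, 0.64 and 0.60 for Pck1, beside medians over all genes of 0.13, 0.17 and 0.20. Fbp1 (0.14, 0.17 and 0.20) and, in WT and KO, Pcx (0.14 and 0.14) were near those medians. Several livers stood high or low in many members together. KO ZT8 liver 2 was the highest of its 3 livers in all 9 genes, with a median deviation from the group mean of 0.68 (log2): it read 1734 FPKM for Pck1, where its companions read 404 and 362, and 274 FPKM for Igfbp1 against 34.9 and 40.4. RE ZT16 liver 2 was the highest of its 3 in 7 of 9 genes (median deviation 0.54), and RE ZT12 liver 0 was the lowest in 7 of 9 (median deviation -0.54). The members therefore did not vary independently within a group.

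**Figure D4:**
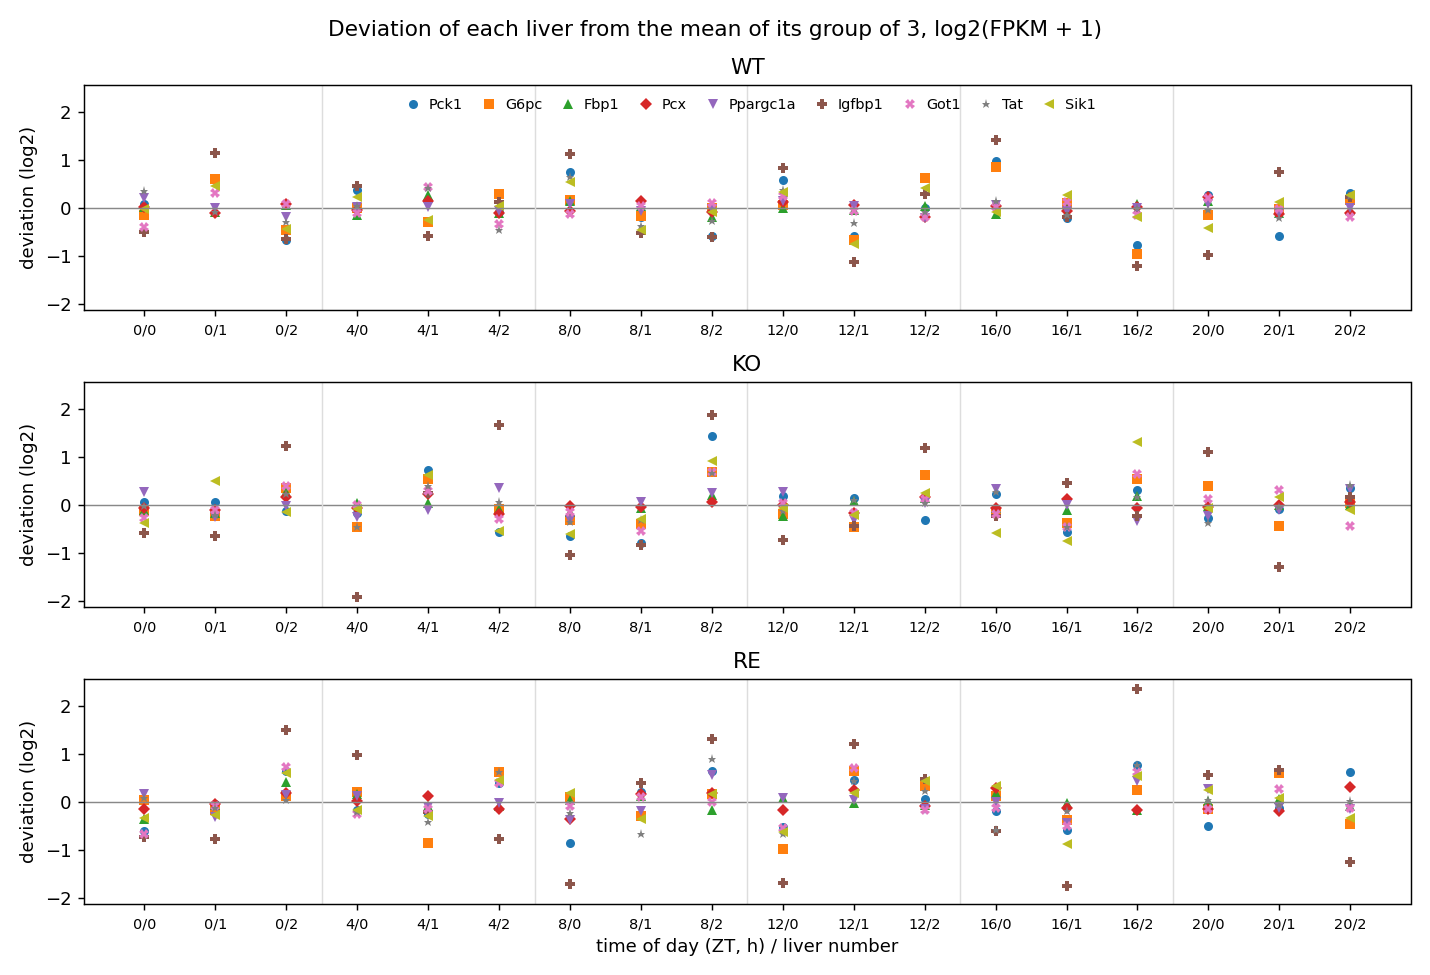
Deviation of each liver from the mean of its group of 3 (log2(FPKM + 1)) for the 9 genes, by genotype, with time of day (ZT, h) and liver number on the horizontal axis. In KO at ZT8 liver 2 all 9 symbols lie above 0, and Igfbp1 has the widest spread in KO and RE.

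Other genes of the pathway were counted from lists of the other gluconeogenic enzymes and shuttles, glycolysis, the glucagon and cAMP arm, the FOXO and insulin arm, nuclear receptors and their coactivators, and the fasting response in fat use. In KO no gene of any of the 6 lists had a called rhythm (limma, 0.0366% of all genes); 4, 2, 2, 2, 0 and 3 genes, in the order of the lists, had an unadjusted p under 0.05. In WT a rhythm was called in 12 of 21 other gluconeogenic genes, 10 of 15 glycolytic genes, 8 of 18 tested genes of the glucagon and cAMP arm, 7 of 14 of the FOXO and insulin arm, 6 of 13 nuclear receptor and coactivator genes and 5 of 10 genes of fat use, beside 34.8% of all genes. In RE the counts were 13 of 21, 10 of 15, 10 of 18, 3 of 14, 5 of 13 and 8 of 10, beside 46.8% of all genes. The median amplitude in RE was 0.21, 0.21, 0.28, 0.16, 0.24 and 0.65 in the same order, beside 0.16 over all genes, so that of the fat use genes was the highest of the 6. The spread between livers, which raises a fitted amplitude, was not compared between the lists.

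Among the other gluconeogenic genes, 3 of 21 had a rhythm in RE that differed from KO (3.07% of all genes): Slc37a4, Ldha and Aqp9. The RE rhythm differed from WT in 9 of 21 (14.1% of all genes), and the KO rhythm differed from WT in 7 of 21 (9.06% of all genes). Slc37a4, the transporter that brings glucose 6-phosphate to glucose-6-phosphatase, had an amplitude of 0.76 in WT (peak ZT12.9) and 0.60 in RE (peak ZT14.1), and differed by 0.62 between RE and KO (SE 0.15, limma adjusted p 0.0412). With RE and KO fitted without WT, 2 of all genes had a called RE to KO rhythm difference, against 336 with WT in the fit. The genes of these lists were not followed one by one through the alternative fits. Aqp9, the channel for glycerol uptake, peaked at ZT7.93 in WT (0.37) and ZT7.71 in RE (0.48). Slc25a47, a mitochondrial carrier, cycled with 0.89 in WT and 1.14 in RE and peaked at ZT8.00 and ZT8.58, while its level was lower than WT in RE (log2 -1.03, SE 0.18). Gpt, alanine aminotransferase, peaked at ZT14.8 in WT and ZT2.86 in RE, and that difference in rhythm was called (0.56, SE 0.09). In level, 13 of these 21 genes differed from WT in KO (3 higher, 10 lower) and 11 in RE (3 higher, 8 lower), with median log2 differences of -0.09 and -0.10, beside 42.3% of all genes in KO (20.2% lower) and 45.9% in RE (21.7% lower).

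Signalling to these genes was also read. Gcgr, the glucagon receptor, had an RE rhythm of small size (0.24, peak ZT8.80) that differed from KO (0.25, SE 0.05, limma adjusted p 0.0177), and Cebpb, a factor that cAMP induces, cycled in WT (0.54, peak ZT13.5) and RE (0.55, peak ZT11.2). The RE rhythm of Cebpb differed from KO by 0.83 (SE 0.21, adjusted p 0.0449). In the FOXO and insulin arm, 8 of 14 genes differed in level from WT in KO and 8 of 14 in RE, 3 higher and 5 lower in each, beside the same 42.3% and 45.9% of all genes. The insulin receptor substrates Irs1 and Irs2 were higher than WT in RE by 0.50 and 0.92 (log2) and in KO by 0.58 and 0.52, and no gene of that arm passed the test of the rhythm difference between RE and KO (2 at an unadjusted p under 0.05). In the list of nuclear receptors and coactivators, the genes that differed in level were lower than WT, 8 of 13 in KO (20.2% of all genes were lower) and 4 of 13 in RE (21.7%), among them Ppara, a receptor that turns on fat oxidation in fasting (log2 -0.85 in KO and -0.77 in RE). In glycolysis, Pdk4, the kinase that blocks pyruvate entry to mitochondrial oxidation, was higher than WT in KO by 1.54 and in RE by 1.43 (log2), and it peaked at ZT21.8 in WT with an amplitude of 1.18, against ZT3.20 and 0.60 in RE. In fat use, the RE rhythm differed from KO in Angptl4, an inhibitor of lipoprotein lipase (2.21, SE 0.42, adjusted p 0.0120), and in Cpt1a, which admits fatty acids to mitochondria (0.63, SE 0.16, adjusted p 0.0472). Their RE peaks were ZT10.2 and ZT9.61, earlier in the day than the RE peaks of Pck1 and G6pc; whether these peak times differ was not tested.

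**Figure D5:**
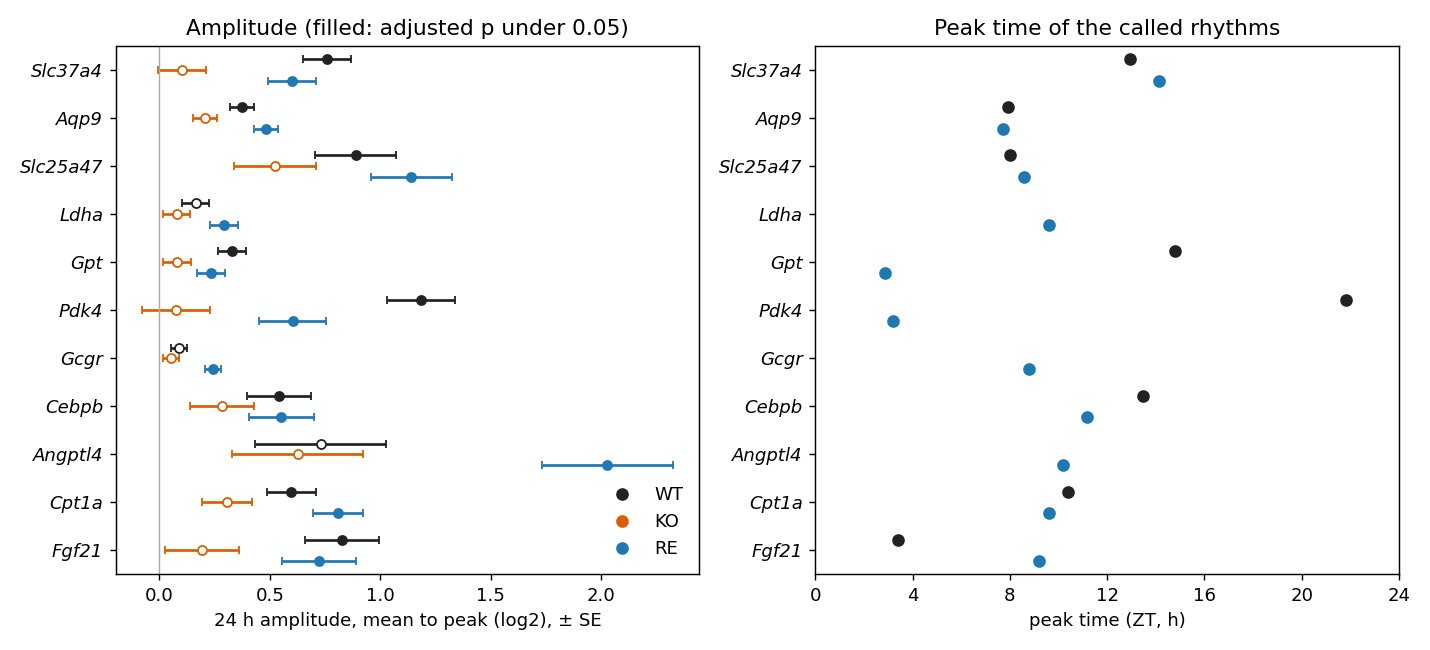
The left panel gives the 24 h amplitude (log2, mean to peak, ± SE) of 11 other genes of the pathway and of fasting in WT, KO and RE, with filled points for adjusted p under 0.05; the right panel gives the peak time (ZT, h) of the called rhythms. These 11 were picked for display from the named genes after their values were seen; every KO point is open, and Angptl4 in RE has the largest amplitude shown, 2.03.

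The genes most similar in pattern were found by the correlation of log2(FPKM + 1) over the 18 group means; the points share their libraries, and the values describe only. Pck1 and G6pc had each other as the nearest of all genes of at least 5 FPKM (Pearson r 0.88). Stbd1 (0.85) and Tnfrsf1b (0.85) followed for Pck1, and Slc38a2 (0.81) and Zpr1 (0.77) for G6pc. Fbp1 and Pcx had r of -0.21 and 0.04 with Pck1 and 0.59 with each other. Fbp1 was nearest to Anxa11 (0.91), Pdk2 (0.89) and Reep6 (0.89), and Pcx to Eci1 (0.85), Acot8 (0.82) and Got2 (0.82). Tat and Sik1 had 0.74 with each other and Got1 and Ppargc1a had 0.70. Got1 was nearest to Ndufaf6 (0.92), Slco1a4 (0.89) and Fh1 (0.86), Ppargc1a to Atp6v1a (0.91), Gtf2e1 (0.87) and Bche (0.85), Igfbp1 to Ip6k2 (0.87), Mbl1 (0.86) and Dirc2 (0.85), Tat to Rsrp1 (0.89), Tfrc (0.83) and Slc35b4 (0.80), and Sik1 to Ddx21 (0.85), Eif4a1 (0.83) and Cirh1a (0.82).

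Markers of cell types were summed per library beside these results. The median sum of 6 hepatocyte markers was 24019 FPKM over WT livers, 19964 over KO livers and 23771 over RE livers, and that of 8 periportal markers 2011 (1708 to 2459), 1899 (1495 to 2365) and 1919 (1646 to 2442). Periportal markers differed from WT in level in 5 of 8 in KO (2 higher) and 4 of 8 in RE (1 higher), beside 42.3% and 45.9% of all genes. KO ZT8 liver 2, which stood high in all 9 members, had the highest periportal sum of the KO livers. Sds is both a periportal marker here and on the list of other gluconeogenic genes, so this sum and that list overlap. Kupffer cell markers were lower in KO (4 of 6) and RE (6 of 6), beside 20.2% and 21.7% of all genes. Of 5 bile duct markers, 2 (Sox9 and Spp1) were higher in both, beside 22.1% and 24.2% of all genes. Level differed in 5 of 6 hepatocyte markers in KO (2 higher) and 2 of 6 in RE (1 higher), beside 42.3% and 45.9% of all genes. It differed in 4 of 8 pericentral (2 higher) and 2 of 6 endothelial markers (1 higher) in each. Of the tested markers, 0 of 3 lymphocyte, 3 of 4 gut epithelium and 1 of 4 red cell markers were lower in KO (20.2% of all genes). In RE 3 of 3, 1 of 4 and 2 of 4 were lower (21.7%), and none of these lists had a higher marker. Pancreas markers reached 22.7 FPKM in RE ZT16 liver 2 and at most 1.80 in WT and KO, and fat markers reached 12.5 FPKM in RE ZT8 liver 2. The part of these cell types in the results was not tested. Kidney also makes glucose, and its 5 markers summed to at most 0.269 FPKM in any library.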

How the data were processed

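RNA of 54 mouse livers was measured in 18 groups of genotype and time. TopHat and mm10 are named in the submitters' processing notes; neither its version, the program that computed FPKM nor the gene models are given in the sources used here. The authors deposited FPKM for 24346 symbols and no counts, so depth is unknown and precision rests on the spread between livers. Columns were matched to groups by name. Values were analysed as log2(FPKM + 1) for the 10932 genes whose group mean reached 1 FPKM in 1 or more groups (13414 left out). The 18 group means were fitted with limma 3.58.1 in R 4.3.3 (eBayes with trend, 36 residual degrees of freedom), and contrasts gave rhythms (24 h), rhythm differences and two-sided level differences. p was adjusted by Benjamini and Hochberg over all genes tested, with calls under 0.05. The fit was tested on simulated data with independent values and 1 SD per gene for all genotypes. That test does not cover a spread that differs by genotype or livers that deviate in many genes together. Promoter windows came from RefSeq GRCm38.p6, and 8 of 9 members matched.

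All 9 members were tested in every comparison. From the other lists, the text names genes with the smallest adjusted p of the rhythm differences of RE against KO and WT and of the level difference of RE against WT, and 3 genes of most similar pattern per member (mean of at least 5 FPKM). Of the listed genes, Gk was not analysed here, and a result that the rule selects is not reported here. The members and lists were chosen with earlier results of these data known. Alternatives were upper quartile scaling, a filter at 5 FPKM, no filter, a pseudocount of 0.1, robust eBayes, fitting only the genotypes compared, and leaving out each library. For genes outside the 9 members they were read only as counts over all genes.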

Additional observations from a re-analysis of the deposited data

Results flagged for a closer look

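The rhythm of 3 members differed between genotypes by limma's test of the difference itself, each with an adjusted p under 0.05. Pck1 differed between RE and WT by 1.01 and between RE and KO by 1.40 (log2, length of the difference of the cosine and sine terms). Fbp1 differed between RE and WT by 0.41 and between KO and WT by 0.29, and the latter call was lost without any 1 of 21 of the 54 libraries (adjusted p up to 0.0952). G6pc differed between RE and KO by 0.94, a call lost without any 1 of 33 libraries (adjusted p up to 0.0925).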

How the results depend on the processing

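No call of a member changed sign under any alternative. Over all tests of the 9 genes, leaving out 1 library kept the side of the threshold in 14350 cases, ended a call in 183 and added one in 47, and the other settings kept it in 1562, ended it in 23 and added one in 5. With 1 library left out in turn, the number of members called ranged from 2 to 4 for the WT rhythm (main value 4), 1 to 3 for change over time in WT (2), 4 to 8 for the RE rhythm (7), 4 to 6 for change over time in RE (5), 0 to 3 for the KO to WT rhythm difference (1), 1 to 3 for the RE to WT (2) and for the RE to KO rhythm difference (2), and 4 to 5 for the KO to WT level (5). It stayed at 4 for the RE to WT level and at 0 for the KO rhythm, for change over time in KO and for the RE to KO level. At single times the calls were counted over 9 genes and 6 times, and ranged from 3 to 8 for KO against WT (main value 7), 6 to 11 for RE against WT (9) and 0 to 1 for RE against KO (0). Without a filter the rhythm differences gave 0 (KO to WT), 1 (RE to WT) and 1 (RE to KO), and KO against WT gave 4 calls at single times. That setting also ended the rhythm calls of Fbp1 in WT and of Ppargc1a and Sik1 in RE. A filter at 5 FPKM gave 1 call at single times of RE against KO. Upper quartile scaling gave 0 for the KO to WT rhythm difference, and robust eBayes gave 1 for RE to KO. With only the genotypes compared, 5 members had a 24 h rhythm in RE. In those fits 4 members changed over time in WT and 1 in RE, and 0 differed in rhythm between RE and KO. Over all genes, fitting the genotypes alone moved change over time in WT from 2573 to 4396 and in RE from 4298 to 1161, the RE rhythm from 5116 to 3107, and the RE to KO rhythm difference from 336 to 2 (191 without a filter). The cause was not tested. Fbp1 KO to WT gave an adjusted p of 0.0706 without a filter, G6pc RE to KO 0.0830, and Pck1 RE to WT 0.0632. Ppargc1a has no value with the filter at 5 FPKM. No paired analysis was possible because the table's columns are numbered 0 to 2 and do not carry the replicate numbers of the labels. FPKM without counts give no depth, so the counting error of the low genes Ppargc1a and Sik1 is unknown.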
